A study of Mus musculus with 12 samples.

Results

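The ligands and receptors of the TGF-beta and activin family were followed as 9 genes, the 3 TGF-beta ligands Tgfb1, Tgfb2 and Tgfb3, the activin B subunit Inhbb, the receptors Tgfbr1, Tgfbr2 and Acvrl1, and the co-receptors Tgfbr3 and Eng. They were taken by gene name, and all 9 were listed among the 17811 genes of the dim tdT table, the 17521 genes of the bright tdT table and the 15768 genes that both tables held. The cells came from glomeruli of C57BL/6 mice of 4 months, all of which carried a Tek-Cre transgene and a tdTomato (tdT) reporter, and were sorted by tdT brightness into dim and bright cells. WT mice were wild type and AS mice, a model of Alport syndrome, were Col4a5 -/-, and 3 mice of each genotype each gave 1 dim and 1 bright library, which makes 4 groups of 3 libraries (WT-dim, AS-dim, WT-bright and AS-bright). The Tek promoter that drives the Cre is active in endothelial cells, and this driver is also known to recombine in part of the blood cell lineage. The list was selected on measured values in one respect, in that the difference of Inhbb between AS-bright and WT-bright cells was known when it was made, so that the AS over WT difference of the bright cells is described for all 9 genes with no test.

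TGF-beta ligands are secreted in a latent form, and once released they bind the type II receptor Tgfbr2, which then activates the type I receptor Tgfbr1 and, through it, Smad2 and Smad3. In endothelial cells a further type I receptor, Acvrl1 (ALK1), with the co-receptor endoglin (Eng), is best known as the receptor of BMP9 and BMP10 and acts through Smad1, Smad5 and Smad9. Activins are dimers of inhibin beta subunits, signal through Acvr2a, Acvr2b and Acvr1b, and are held in check by follistatin. In the kidney the family is known for its part in matrix deposition and in the upkeep of glomerular capillaries.

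The 12 libraries held 11440169 to 15074909 counts on genes, and the share of ERCC spike-ins was 0.0286% to 0.282%. Col4a5, which is disrupted in the AS mice, had 771, 439 and 877 counts in the WT-dim libraries and 51, 24 and 17 in the AS-dim libraries, whereas in the bright cells it was low in both genotypes (counts of 158, 69 and 78 for WT against 43, 104 and 55 for AS) and the libraries overlapped. The bright libraries carried the markers of their label, since the 9 endothelial markers (Pecam1, Cdh5, Kdr, Flt1, Ehd3, Emcn, Egfl7, Tie1 and Tek) summed to 10165 to 15298 CPM (counts scaled to a common library size) in WT and 12710 to 15702 CPM in AS, none of them at 0. In the dim libraries the same 9 genes were all detected but summed to 589 to 1239 CPM in WT and 211 to 278 CPM in AS, while the 18 leukocyte markers, all detected there, summed to 9597 to 14778 CPM in WT and 17495 to 19976 CPM in AS. The dim libraries thus went against their endothelial label and are called dim tdT cells here. In the bright libraries 13 of the 18 leukocyte markers were listed and summed to 59.5 to 109 CPM in WT and 106 to 147 CPM in AS.

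**Figure D1:**
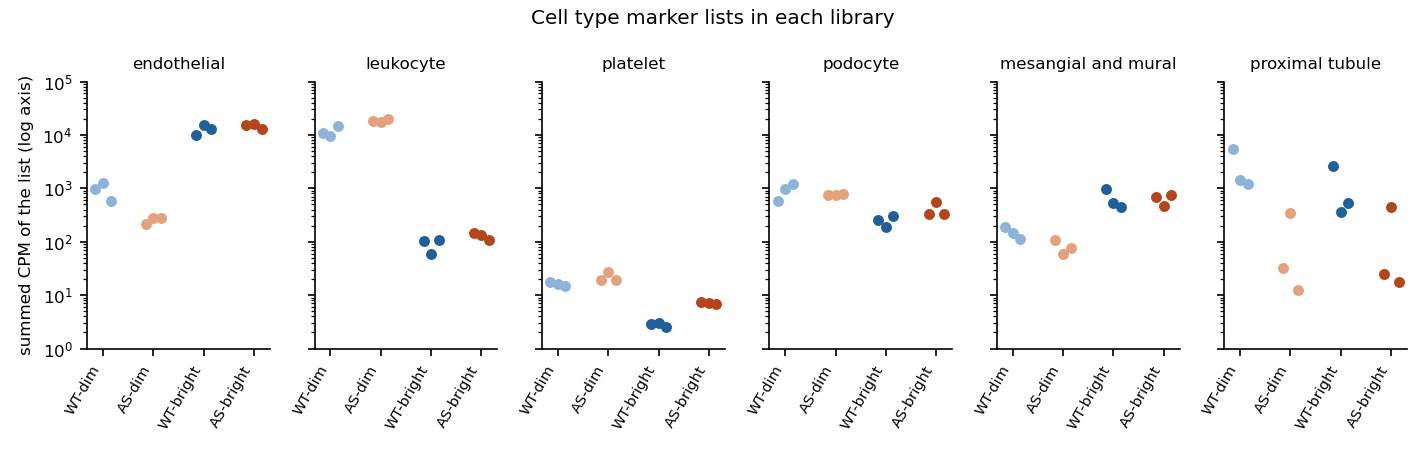
Summed level of 6 lists of cell type markers in each library (CPM of all counts on genes, log axis), with 1 point per library and 4 groups of 3 libraries. Leukocyte markers lie at 9597 CPM or more in the 6 dim libraries and at 147 CPM or less in the 6 bright libraries, endothelial markers reach 10165 CPM or more in the bright libraries only, and proximal tubule markers are lower in AS than in WT except for the second AS-bright library, which lies among the WT-bright libraries.

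Of the 9 genes, 4 lie apart from other genes and 5 share exon bases with a neighbour. Tgfb1 (chromosome 7, 25687002 to 25705077, plus strand of GRCm38), Tgfbr1 (chromosome 4, 47353222 to 47414931, plus), Tgfbr2 (chromosome 9, 116084293 to 116175360, minus) and Inhbb (chromosome 1, 119415465 to 119422248, minus) were overlapped by no other annotated gene. Exons of Eng (chromosome 2, 32646595 to 32682669, plus) met those of Fpgs on the opposite strand, exons of Tgfb2 (chromosome 1, 186622792 to 186705989, minus) those of the antisense gene Gm29491, and exons of Acvrl1 (chromosome 15, 101128522 to 101145336, plus) those of the antisense gene Gm16031. Tgfb3 (chromosome 12, 86056745 to 86079041, minus) met Gm37804 and Gm48008 on the opposite strand, and Tgfbr3 (chromosome 5, 107106570 to 107289629, minus) met Gm43422 on its own strand. The strand that was counted is not given in the sources used here, so counts of these 5 genes could include reads of the partner.

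The bases before the start site are shown for 4 genes, Tgfb2 and Eng because both separated the dim from the bright cells and AS-dim from WT-dim cells, Inhbb for its level in AS-bright cells and Tgfbr2 as the receptor that all 3 TGF-beta ligands share. They come from RefSeq on GRCm38.p6, which held a window for 6 of the 9 genes, and cover 250 bases up to the annotated start. Capitals mark matches on either strand to 4 short motifs. The first is the TATA box, spelled TATAAA and found in 12.4% of all 32851 windows of this length. The next is an E-box, spelled CACGTG and found in 6.02% of the windows. The core of a cAMP response element, spelled TGACG, was found in 17.8% of them. The Smad-binding core, spelled CAGAC, was found in 42.2% of them.
Tgfb2 (chr1:186705990-186706239, minus strand): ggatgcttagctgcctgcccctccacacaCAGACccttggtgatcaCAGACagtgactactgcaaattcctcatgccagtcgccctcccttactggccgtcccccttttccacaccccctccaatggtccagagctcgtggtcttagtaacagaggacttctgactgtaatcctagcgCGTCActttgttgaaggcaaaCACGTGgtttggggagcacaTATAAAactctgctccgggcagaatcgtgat
Eng (chr2:32646345-32646594, plus strand): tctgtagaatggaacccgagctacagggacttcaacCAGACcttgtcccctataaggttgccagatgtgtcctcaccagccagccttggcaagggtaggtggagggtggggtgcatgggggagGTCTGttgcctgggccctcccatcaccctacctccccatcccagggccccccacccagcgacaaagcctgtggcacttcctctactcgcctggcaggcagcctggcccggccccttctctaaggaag
Tgfbr2 (chr9:116175364-116175613, minus strand): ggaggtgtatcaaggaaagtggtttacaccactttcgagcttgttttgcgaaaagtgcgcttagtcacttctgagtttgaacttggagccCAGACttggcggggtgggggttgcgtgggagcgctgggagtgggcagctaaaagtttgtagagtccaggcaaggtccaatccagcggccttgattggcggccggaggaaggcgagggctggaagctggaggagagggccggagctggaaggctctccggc
Inhbb (chr1:119422249-119422498, minus strand): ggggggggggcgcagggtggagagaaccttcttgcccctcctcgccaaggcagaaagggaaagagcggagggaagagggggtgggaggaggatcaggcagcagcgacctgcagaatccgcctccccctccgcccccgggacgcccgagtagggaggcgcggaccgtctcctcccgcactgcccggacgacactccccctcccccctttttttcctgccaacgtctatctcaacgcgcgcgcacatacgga
The Tgfb2 window held 1 match each of the TATA box, the E-box and the cAMP response core, the last on the other strand, and 2 of the Smad-binding core. Eng held 2 matches of the Smad-binding core and Tgfbr2 held 1, and the Inhbb window held none of the 4 motifs. The matches did not overlap each other, and a match describes letters only.

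Tgfb2, a TGF-beta ligand, was the ligand gene that separated the 4 groups most clearly. It had 195, 246 and 229 CPM in the WT-bright libraries and 65.0, 70.8 and 97.7 CPM in the AS-bright libraries, so that every AS-bright library lay below every WT-bright library. In the dim cells it had 29.997, 16.3 and 7.76 CPM in WT and 3.53, 2.49 and 2.87 CPM in AS, again with no overlap. It rose from dim to bright cells by 3.69 on the log2 scale in WT (SE, the standard error, 0.44, adjusted p = 0.000334) and by 4.69 in AS (SE 0.28, adjusted p = 4.02e-07), in 3 of 3 mice of each genotype. This p and all adjusted p below are Benjamini-Hochberg values of the quasi-likelihood test in edgeR. Within the 6 mice the ratio of bright to dim was 6.49, 15.1 and 29.5 in WT and 18.4, 28.5 and 34.0 in AS. As for every gene in these bulk libraries, fewer cells of a type and less RNA per cell cannot be told apart.

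In the dim cells Tgfb2 fell from WT to AS by 2.63 on the log2 scale (SE 0.59, adjusted p = 0.0352), a 6.18-fold difference. In the bright cells the log2 difference of AS from WT was -1.59 (SE 0.22). The call in the dim cells was lost without any 1 of 5 libraries, namely WT-dim replicate 1 (adjusted p = 0.0663), WT-dim replicate 2 (0.0566) and AS-dim replicates 1, 2 and 3 (0.124, 0.100 and 0.138), although the log2 fold change stayed between -2.99 and -2.03. The endothelial markers moved the same way in the dim cells, where 6 of 9 fell from WT to AS and none rose, with a median log2 fold change of -2.18. Proximal tubule markers fell there too (5 of 8, median -4.42), and in the bright cells all 8 had a negative difference (median -2.66) while 8 of 9 endothelial markers had a positive one. The part of these cell types in the differences of Tgfb2 was not tested.

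Of the 8 genes that passed the filter on low counts in the dim comparison of AS and WT, 2 were called and both were lower in AS (Tgfb2 and Eng), against 8.63% of all 14637 genes tested in either direction and 6.42% lower. In WT, 5 of 8 were called for bright over dim, all higher in bright cells, against 25.3% of 14247 genes in either direction and 13.8% higher. In AS, 5 of 8 were called higher and 1 lower in bright cells, against 28.6% and 26.5% of 14052 genes, or 55.1% in either direction. Without overlap of the dim and bright libraries were 5 of 8 higher and 2 lower in WT (22.2% and 19.7% of all genes), and 6 of 9 higher and 1 lower in AS (31.9% and 30.5%). The count of 6 includes Inhbb, which was chosen for its AS-bright values and passed the filter through those libraries, and nothing is read from its place in it. In the bright comparison of AS and WT all 9 passed the filter, and 4 lay higher in every AS library than in any WT library (Tgfb1, Inhbb, Tgfbr2 and Eng) and 1 lower (Tgfb2), where 13.6% and 10.9% of all genes did so. This last contrast was in view when the list was made, and nothing is read from its count.

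**Figure D2:**
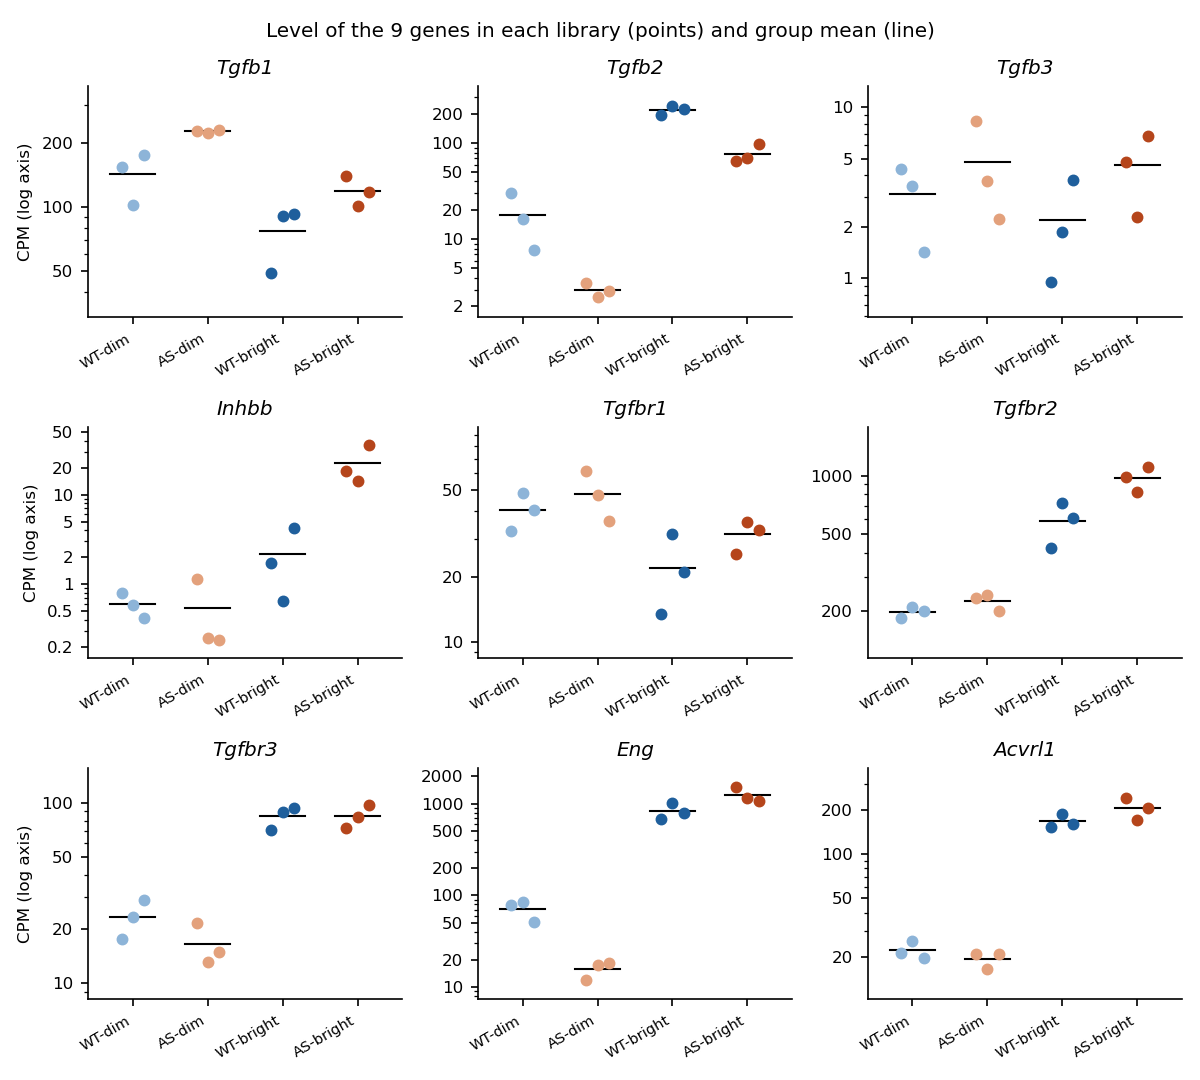
Level of each of the 9 genes in CPM (log axis, 1 normalization over 12 libraries) with 1 point per library and a line at the mean of the 3 libraries of a group. Eng, Acvrl1, Tgfbr2, Tgfbr3 and Tgfb2 lie higher in every bright than in every dim library, Tgfb1 is higher in AS-dim than in all other libraries, and Inhbb stands above 14 CPM in the AS-bright libraries only.

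Tgfb1, the ligand most widely made by blood and immune cells, ran the other way between the sorted cells. Its level was 153, 102 and 175 CPM in WT-dim and 227.3, 223 and 231 CPM in AS-dim libraries. The bright libraries had 48.8, 90.7 and 92.9 CPM in WT and 139, 101 and 118 CPM in AS. Tgfb1 fell from dim to bright cells in AS by 0.94 on the log2 scale (SE 0.17, adjusted p = 0.00101), in 3 of 3 mice. In WT the log2 difference was -0.85 (SE 0.32, adjusted p = 0.0829), which did not pass, although no bright library overlapped a dim one, and which passed in 1 of 14 alternatives (adjusted p = 0.0199, with all 12 libraries in 1 fit).

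Between genotypes the Tgfb1 values of AS lay above those of WT in both cell fractions with no overlap. The log2 difference was 0.63 in the dim cells (SE 0.22, adjusted p = 0.114), which did not pass, and 0.56 in the bright cells (SE 0.26). In the dim cells the summed leukocyte markers were also higher in every AS than in every WT library, 3 of 18 of them rose (Csf1r, Adgre1 and Lyz2, genes of macrophages and monocytes) and none fell, and their part in the Tgfb1 values was not tested.

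Tgfb3, the remaining TGF-beta ligand, was scarce, with 17 to 50 counts in WT-dim, 28 to 118 in AS-dim, 15 to 57 in WT-bright and 35 to 93 in AS-bright libraries. Its groups overlapped in all 4 comparisons. The log2 differences were 0.62 (SE 0.64) for AS over WT in the dim and 0.997 (SE 0.58) in the bright cells, and -0.45 (SE 0.64) in WT and -0.10 (SE 0.53) in AS for bright over dim, with adjusted p of 0.592, 0.638 and 0.891 in the 3 that were tested. None of these 3 passed. With 1 library left out, the AS over WT value of the bright cells ran from 0.60 to 1.62. The bright over dim value of WT ran from -1.09 to -0.09.

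Set against each other per kilobase of merged exons, the TGF-beta ligand genes had a different make-up in each group. Tgfb2 made up 77.2%, 69.6% and 66.9% of the summed level of Tgfb1, Tgfb2 and Tgfb3 in the WT-bright libraries and 27.9%, 37.2% and 39.9% in the AS-bright libraries. Its share was 3.68% to 14.0% in WT-dim and 0.938% to 1.27% in AS-dim libraries. Tgfb1 was accordingly the leading ligand gene in 9 of the 12 libraries, all but the WT-bright ones, and Tgfb3 stayed between 0.644% and 5.12%. These shares are a description that rests on the same counts as the differences above.

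**Figure D3:**
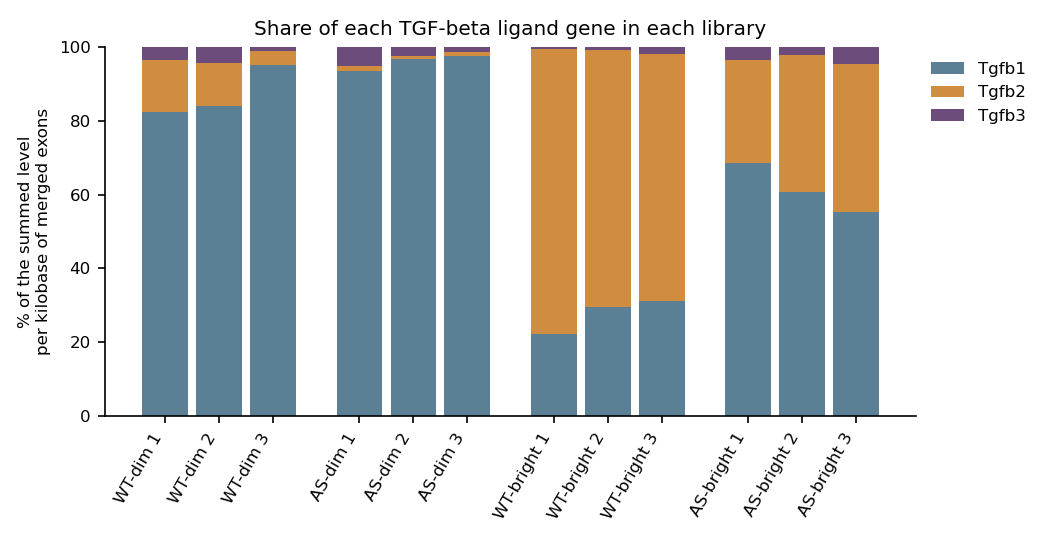
Share of Tgfb1, Tgfb2 and Tgfb3 in their summed level per kilobase of merged exons (percent), with 1 stacked bar per library. Tgfb2 takes over 66% of the bar in the 3 WT-bright libraries and less than 40% in the 3 AS-bright libraries, and Tgfb1 fills over 82% of every dim bar.

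Inhbb, which encodes the subunit of activin B, was low except in AS-bright cells. It had 9, 7 and 5 counts in WT-dim, 16, 3 and 3 in AS-dim, 27, 9 and 64 in WT-bright and 253, 216 and 488 in AS-bright libraries. On the CPM scale this was 1.71, 0.641 and 4.21 in WT-bright and 18.4, 14.1 and 35.5 in AS-bright libraries, with no overlap. These are the values that led to its choice, and its log2 difference of AS over WT in the bright cells, 3.27 (SE 0.57), is given without a test. Leaving out WT-bright replicate 3, the highest WT library, moved it to 4.12.

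For bright over dim in AS the fitted log2 difference of Inhbb was 5.29 (SE 0.60), and it rested on dim libraries of few counts, since without AS-dim replicate 1 it was 6.48. The ratio of bright to dim was 2.16, 1.08 and 9.98 in the WT mice and 16.3, 56.7 and 148 in the AS mice. Inhbb did not pass the filter on low counts for AS over WT in the dim cells or for bright over dim in WT, so that neither comparison gives a fitted value for it. Inhba, the subunit of activin A, was listed in the dim table only, where WT libraries held 5, 20 and 6 counts and AS libraries 22, 16 and 69.

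**Figure D4:**
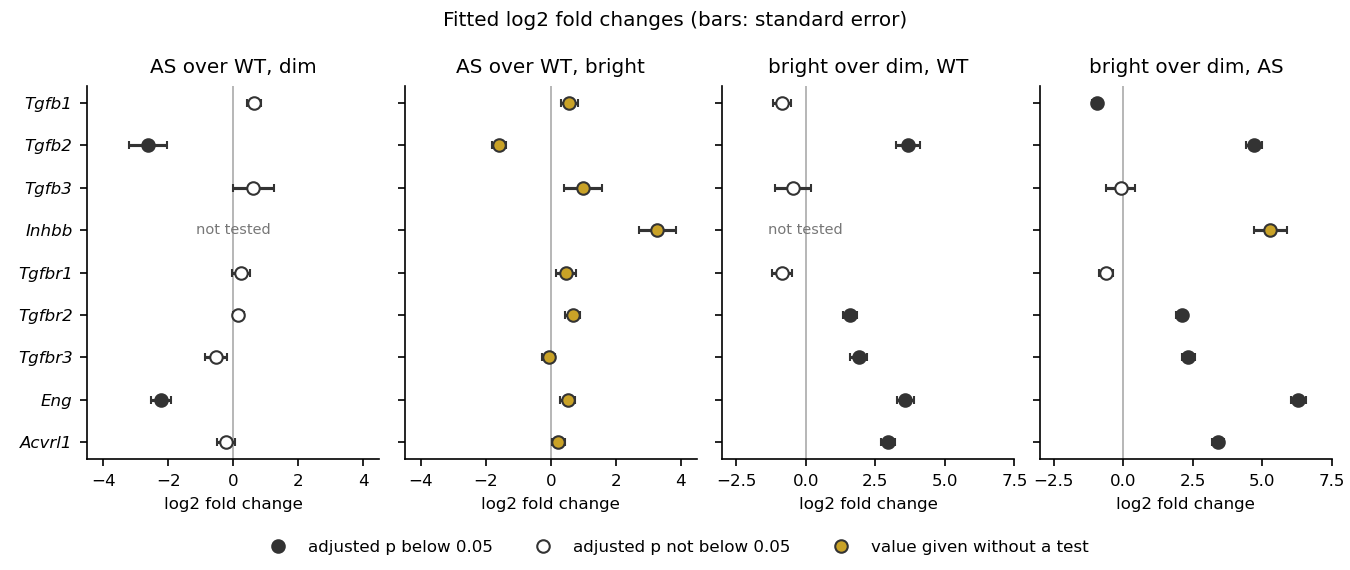
Fitted log2 fold change of each of the 9 genes in the 4 comparisons, with the standard error as bars. Filled points mark an adjusted p below 0.05, open points one that is not, and yellow points the values given without a test, and Eng is the gene whose point changes side between the dim (-2.21) and the bright (0.52) comparison of AS and WT with no overlap of libraries in either.

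Among the receptors, Tgfbr2, the type II receptor of all TGF-beta ligands, was higher in bright cells. It had 184, 211 and 201 CPM in WT-dim, 233, 244 and 202 in AS-dim, 423, 724 and 604 in WT-bright and 981, 825 and 1112 in AS-bright libraries. The dim groups overlapped, and every AS-bright library lay above every WT-bright one. Tgfbr2 rose from dim to bright cells by 1.59 on the log2 scale in WT (SE 0.25, adjusted p = 0.00154) and 2.09 in AS (SE 0.18, adjusted p = 5.78e-06). For AS over WT the log2 difference was 0.15 in the dim cells (SE 0.17, adjusted p = 0.615) and 0.67 in the bright cells (SE 0.23).

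Tgfbr1, the type I receptor that partners Tgfbr2, did not share this pattern. Its levels were 32.5, 48.4 and 40.5 CPM in WT-dim, 61.2, 47.7 and 36.0 in AS-dim, 13.5, 31.4 and 20.98 in WT-bright and 25.6, 36.0 and 32.8 in AS-bright libraries. The log2 difference of bright from dim was -0.85 in WT (SE 0.37, adjusted p = 0.125), with no overlap, and -0.63 in AS (SE 0.24, adjusted p = 0.0506), where the highest bright and the lowest dim library were both at 36.0 CPM, and neither passed. The AS difference passed in 5 of 14 alternatives (lowest adjusted p = 0.0236, without AS-dim replicate 3, and 0.0364 without AS-bright replicate 2) and the WT difference in 1 of 14 (0.0466, with all 12 libraries in 1 fit). Neither did AS over WT in the dim cells (0.23 on the log2 scale, SE 0.28, adjusted p = 0.661). The bright libraries of AS and WT overlapped, with a log2 difference of 0.46 (SE 0.31). Per kilobase of merged exons, Tgfbr2 was 3.04 to 4.52 times as high as Tgfbr1 in the dim libraries and 18.3 to 30.6 times in the bright libraries.

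Eng, the co-receptor endoglin, had the widest range of the 9 genes apart from Inhbb. It had 79.6, 85.003 and 51.1 CPM in WT-dim and 11.9, 17.4 and 18.5 CPM in AS-dim libraries. The bright libraries had 686, 1026 and 798 CPM in WT and 1537, 1144 and 1087 CPM in AS. AS thus lay below WT in the dim cells and above WT in the bright cells, each time without overlap.

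In the dim cells Eng fell from WT to AS by 2.21 on the log2 scale (SE 0.31, adjusted p = 0.0179), a 4.64-fold difference. Without AS-dim replicate 1 or replicate 3 the adjusted p was 0.113 and 0.107 and the log2 fold change -2.06 and -2.33, and in the other 12 alternatives the call held. In the bright cells the log2 difference of AS from WT was 0.52 (SE 0.23). Eng rose from dim to bright cells by 3.58 on the log2 scale in WT (SE 0.29, adjusted p = 4.08e-05) and 6.29 in AS (SE 0.27, adjusted p = 5.17e-08). The ratio within a mouse was 8.61, 12.1 and 15.6 in WT and 129, 65.7 and 58.7 in AS.

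Endothelial markers are set beside Eng for each of these comparisons. From WT to AS in the dim cells Kdr fell by 2.76, Emcn fell by 2.88 and Cdh5 fell by 1.99 on the log2 scale, and over the 9 markers the median was -2.18. In the bright cells 8 of the 9 had a positive difference, with a median of 0.34, while Emcn was at -0.39, and the libraries of 6 of the 9 overlapped. For bright over dim all 9 rose in both genotypes, with a median of 3.68 in WT and 6.32 in AS, next to 3.58 and 6.29 for Eng. Their part in the Eng values was not tested.

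Acvrl1, the type I receptor that works with endoglin, rose from dim to bright cells as well but did not follow Eng between genotypes. It had 21.1, 25.8 and 19.6 CPM in WT-dim, 20.8, 16.5 and 20.8 in AS-dim, 153, 188 and 159 in WT-bright and 242, 171 and 206 in AS-bright libraries. The genotypes overlapped in both fractions. Bright over dim was 2.96 on the log2 scale in WT (SE 0.26, adjusted p = 6.20e-05) and 3.40 in AS (SE 0.21, adjusted p = 4.76e-07). For AS over WT it was -0.22 in the dim cells (SE 0.28, adjusted p = 0.665) and 0.24 in the bright cells (SE 0.20).

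Per kilobase of merged exons Eng exceeded Acvrl1 by 2.75 to 3.99 times in WT-dim, 4.71 to 5.74 times in WT-bright and 5.55 to 7.05 times in AS-bright libraries. In the AS-dim libraries the ratio was 0.602, 1.11 and 0.937, below every WT-dim library. The pair of partners therefore stood in a different proportion in AS-dim cells than in the other 3 groups, which is a description of the same counts.

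Tgfbr3, the co-receptor betaglycan, which presents TGF-beta ligands to Tgfbr2, had 17.6, 23.5 and 29.1 CPM in WT-dim, 21.7, 13.1 and 14.8 in AS-dim, 71.1, 89.8 and 94.2 in WT-bright and 72.4, 84.3 and 98.0 in AS-bright libraries. It rose from dim to bright cells by 1.90 on the log2 scale in WT (SE 0.30, adjusted p = 0.00157) and 2.34 in AS (SE 0.24, adjusted p = 2.05e-05). Between genotypes its libraries overlapped, with a log2 difference of -0.53 in the dim cells (SE 0.33, adjusted p = 0.358) and -0.07 in the bright cells (SE 0.21).

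The AS difference in bright cells minus that in dim cells, from 1 fit of all 12 libraries, was 2.76 on the log2 scale for Eng (SE 0.37) and 3.44 for Inhbb (SE 1.33), where the median over all genes was 0.13, and the Inhbb value rests on dim counts of 3 to 16. It was 1.07 for Tgfb2 (SE 0.55), 0.55 for Tgfbr2 (SE 0.30) and 0.50 for Acvrl1 (SE 0.30). The other 4 genes lay between -0.04 and 0.50, with SE of 0.37 to 0.90. These differences contain the bright contrast that was in view and are given without a test.

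Levels of different genes were compared as the deposited RPKM, which correct counts for the length of the gene and the depth of the library. In WT-bright libraries Eng led with 72.4 ± 12.3 RPKM (SD, n = 3), followed by Tgfbr2 with 51.0 ± 11.5, Tgfb2 with 20.6 ± 1.71 and Tgfb1 with 12.6 ± 3.79. In AS-bright libraries the order was Eng with 105.8 ± 20.8 and Tgfbr2 with 82.7 ± 11.4, whose libraries overlapped, then Tgfb1 with 19.0 ± 3.03 and Acvrl1 with 12.1 ± 2.04. Inhbb was last in WT-bright libraries with 0.527 ± 0.440 RPKM, overlapping Tgfb3, and at place 7 of 9 in AS-bright libraries with 5.24 ± 2.57, overlapping Tgfb2 and above Tgfbr1 in every library.

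In the dim libraries Tgfb1 led with 22.1 ± 5.44 RPKM in WT and 37.0 ± 1.06 in AS. Tgfbr2 came next with 16.5 ± 1.56 and 19.7 ± 1.91, overlapping Tgfb1 in WT but not in AS. Eng held place 3 in WT with 5.90 ± 1.54 and place 6 in AS with 1.37 ± 0.289, where it overlapped Tgfb3 above it and Acvrl1 below it. Inhbb was last in both, with 0.135 ± 0.0393 and 0.129 ± 0.125, and in AS it overlapped Tgfb2 above it.

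The deposited gene lengths were a median 1.53 times the merged exon length of the annotation, and they were longest against it for Acvrl1 (16742 against 4265 bases). On merged exon lengths the first 2 places of every group stayed as they were, but in AS-bright libraries Eng then lay 1.98 to 3.17 times above Tgfbr2 with no overlap (310.2 ± 60.5 and 118.8 ± 17.5 RPKM). Acvrl1 moved from place 5 to 3 in WT-bright, from 4 to 3 in AS-bright, from 7 to 4 in AS-dim and from 7 to 5 in WT-dim libraries, and in AS-dim and in AS-bright libraries 5 of the 9 genes kept their place.

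The rest of the pathway was read from 6 lists with 83 genes in all. In the dim cells 63 of them were tested for AS over WT, of which 1 rose and 6 fell (8.63% of all genes were called), with a median log2 fold change of -0.03 against -0.02 for all genes. DESeq2 called 15 of them in the dim cells. Without AS-dim replicate 1 or without AS-dim replicate 3 none of the 7 calls was left, with 19 and 16 list genes at an unadjusted p below 0.05, and of all genes 0 and 1 were called. The call of Gja4 was also lost without AS-dim replicate 2, that of Itgb8 without AS-dim replicate 2 or WT-dim replicate 1, and that of Edn1 without AS-dim replicate 2 or WT-dim replicate 1 or 2, and over the alternatives their adjusted p reached 0.125, 0.145 and 0.157. In the bright cells edgeR called 1 of 65 higher and none lower (0.188% of all genes were called higher and 0.452% in either direction). Of the 65, 18 had an unadjusted p below 0.05, against 21.8% of all genes in the bright and 26.3% in the dim comparison. DESeq2 called 11 of the 65, and its counts over all genes in both comparisons are given in the last section. For bright over dim 33 of 64 were higher and 7 lower in WT (13.8% and 11.5% of all genes), and 40 of 64 higher and 13 lower in AS (28.6% and 26.5%), with medians of 1.25 and 1.504 against -0.04 and 0.02 for all genes. The 4 comparisons share libraries, so these counts are not independent of each other. In each bright over dim comparison all 9 endothelial markers rose and all 13 leukocyte markers tested fell. All 6 mesangial and mural markers tested were positive there, with medians of 2.32 in WT and 3.28 in AS, and 3 and 6 of them were called. The part of these cell types in the values of the antagonists, the Smads and the target genes was not tested.

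**Figure D5:**
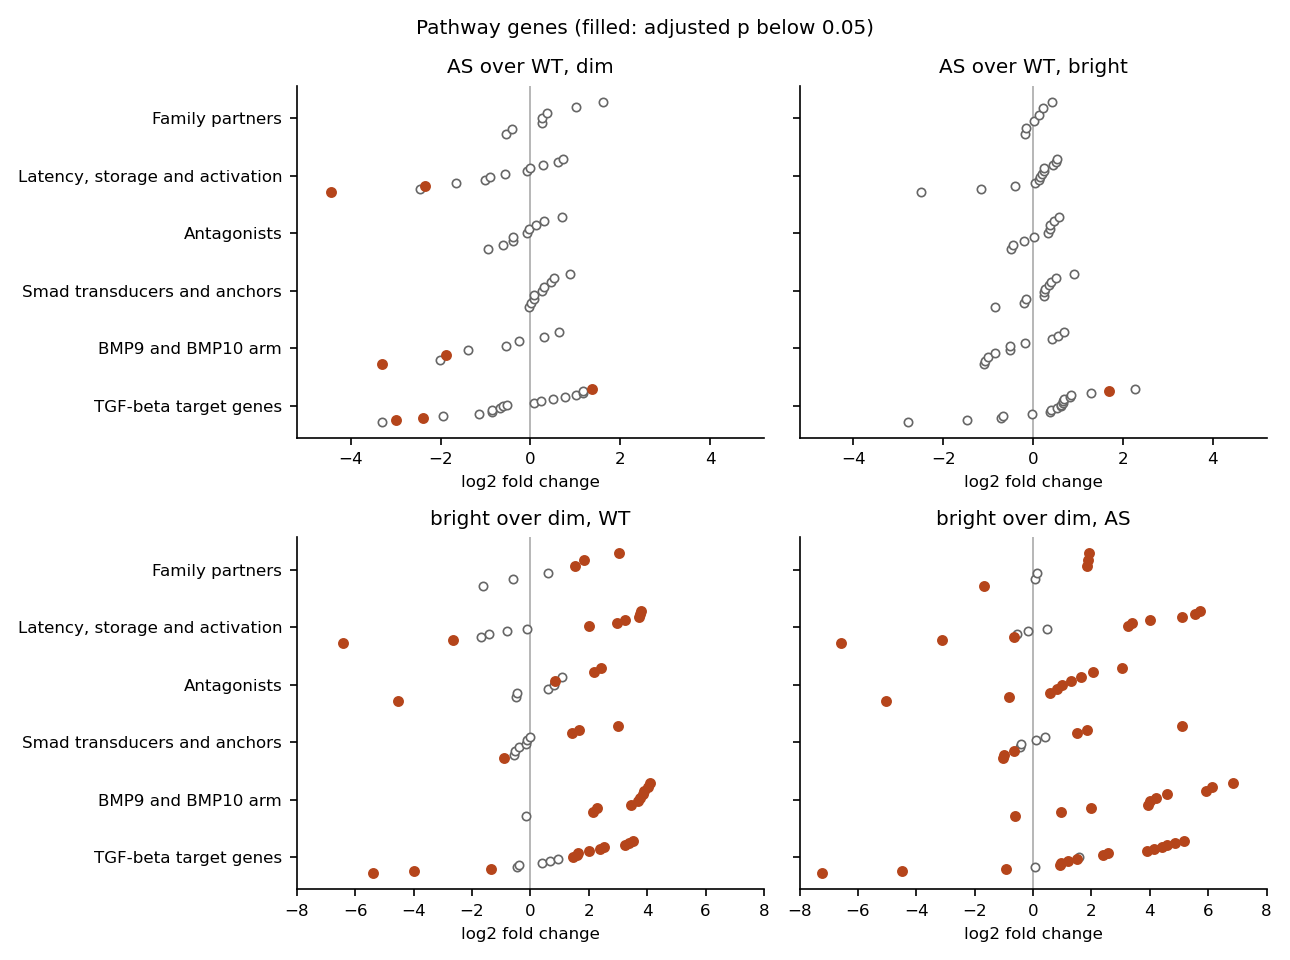
Log2 fold changes of the pathway genes in the 4 comparisons, by list, with filled points for an adjusted p below 0.05 in edgeR's quasi-likelihood test. Most filled points lie in the lower panels (bright over dim), where 9 of 10 genes of the BMP9 and BMP10 list are filled and lie to the right in each genotype, and only 1 point is filled for AS over WT in bright cells (Col1a2).

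Of the family partners, the other ligands and receptors, 3 of 6 tested genes rose from dim to bright cells in WT (13.8% of all genes) and in AS (28.6%). They were the activin and BMP receptors Acvr2a (log2 fold change 1.53 in WT and 1.92 in AS), Acvr1 (1.85 and 1.89) and Acvr2b (3.04 and 1.84). Gdf15, a stress-induced ligand, fell in AS by 1.67 (adjusted p = 0.0233). None of the 7 tested in the dim and of the 6 tested in the bright cells was called for AS over WT by edgeR, nor by DESeq2, nor did any have an unadjusted p below 0.05. The WT calls of Acvr1 and Acvr2b were lost without WT-bright replicate 2, with adjusted p of up to 0.0676 and 0.0733 over the alternatives, and that of Gdf15 without AS-dim or AS-bright replicate 2 or 3 (up to 0.0889).

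Of the 12 genes of latency, storage and activation that were tested for bright over dim, 6 rose and 2 fell in WT (13.8% and 11.5% of all genes), and 6 rose and 3 fell in AS (28.6% and 26.5%). Of the latent TGF-beta binding proteins, Ltbp4 rose from dim to bright cells by 3.78 on the log2 scale in WT and by 5.55 in AS, and Ltbp1 rose by 5.72 in AS. Thbs1, thrombospondin 1, which can activate latent TGF-beta and is also made by platelets and monocytes, fell by 6.41 in WT (adjusted p = 0.000121) and 6.59 in AS (adjusted p = 3.58e-08). Nrros, which anchors latent TGF-beta on myeloid cells, fell by 2.65 in WT and 3.14 in AS, while Lrrc32, another anchor of latent TGF-beta, rose by 3.71 in WT (adjusted p = 0.000541) and 5.09 in AS (adjusted p = 8.55e-07), and Emilin1, a matrix protein that restrains TGF-beta release, rose by 2.98 in WT. Ltbp1 and Emilin1 were called by DESeq2 in both genotypes. In these comparisons the 13 leukocyte markers tested all fell, with medians of -7.80 and -7.12, and their part in the values of Thbs1 and Nrros was not tested.

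From WT to AS edgeR called 2 of 12 tested genes of the same list in the dim cells, both lower. Of all genes, 8.63% were called there in either direction and 6.42% lower. In the bright cells it called none of 12, and 1 had an unadjusted p below 0.05, against 21.8% of all genes. DESeq2 called 5 in the dim cells, all lower in AS (Itgb6, Itgb8, Itgav, Ltbp1 and Ltbp4), and Itgb6 in the bright cells, where its edgeR log2 difference was -2.49 (adjusted p = 0.0911) with no overlap of the libraries. The integrin subunits Itgb6 and Itgb8, which with Itgav release TGF-beta from its latent form, fell by 4.43 (SE 0.92, adjusted p = 0.0296) and 2.35 (SE 0.54, adjusted p = 0.0375). Itgb6 had 936, 211 and 270 counts in WT-dim and 8, 61 and 5 in AS-dim libraries. The 8 proximal tubule markers summed to 5530, 1412 and 1220 CPM and to 31.5, 344 and 12.4 CPM in the same libraries, and 5 of 8 fell. Their part in the integrin values was not tested.

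Of the antagonists, 3 of 9 tested genes rose and 1 fell from dim to bright cells in WT (13.8% and 11.5% of all genes), and 7 rose and 2 fell in AS (28.6% and 26.5%). Bambi, a pseudoreceptor that blocks TGF-beta receptors, rose by 2.42 in WT and 3.04 in AS, and Smurf2, a ubiquitin ligase for Smads and receptors, rose by 2.19 and 2.04. Smurf1 rose by 1.64 in AS. Ski, a Smad co-repressor, rose by 0.85 in WT, a call that was lost without WT-dim replicate 1 or 3 or WT-bright replicate 2 or 3 (adjusted p of up to 0.208). Tgif1, a co-repressor of Smad2, fell by 4.53 in WT (adjusted p = 2.27e-05) and 5.02 in AS (adjusted p = 3.41e-08). Between genotypes edgeR called none of the 9 in either fraction. At an unadjusted p below 0.05 were 2 in the dim and 1 in the bright cells (26.3% and 21.8% of all genes). DESeq2 called 2 in the dim and none in the bright cells. Follistatin (Fst) was in neither table.

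Among the Smad transducers and anchors, the 3 genes that rose from dim to bright cells were Smads of the BMP branch, namely Smad1 (1.68 in WT and 1.504 in AS), Smad5 (1.42 and 1.84) and Smad9 (3.0004 and 5.11). Smad3, of the TGF-beta branch, fell by 0.89 in WT (adjusted p = 0.025), and Zfyve9, which anchors Smad2 and Smad3, fell by 1.03 in AS. In all, 3 of 10 rose and 1 fell in WT (13.8% and 11.5% of all genes), and 3 rose and 3 fell in AS (28.6% and 26.5%), so that the AS counts are near the share of all genes. For AS over WT edgeR called none of 9 in the dim and none of 10 in the bright cells. At an unadjusted p below 0.05 was 1 in each (26.3% and 21.8% of all genes), and DESeq2 called Smad3 in the bright cells. The WT call of Smad3 was lost without any 1 library but WT-dim replicate 1 (adjusted p of up to 0.175). That of Smad9 was lost without WT-dim replicate 1 or 2 or WT-bright replicate 2 or 3 (up to 0.0848), with log2 fold changes of 2.47 to 5.48 over 14 alternatives.

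The list of the BMP9 and BMP10 arm, which uses Acvrl1 and Eng, was mostly higher in bright cells. Of its 10 tested genes 9 rose from dim to bright cells in WT, with a list median of 3.72, and in AS 9 rose and 1 fell, with a median of 4.11, where 13.8% of all genes rose in WT and 28.6% in AS. All 9 endothelial markers rose in the same comparisons, with medians of 3.68 and 6.32, and their part in this list was not tested. Examples are Id1, an immediate target of BMP Smads (3.46 in WT and 4.21 in AS), the inhibitory Smad6 (4.11 and 5.92), the gap junction gene Gja4 (3.76 and 6.84), the type II receptor Bmpr2 (2.28 in WT) and the transcription factor Hey1 (4.57 in AS). Bmpr2 and Hey1 were called by DESeq2 in both genotypes. The ligand genes Gdf2 and Bmp10 were in neither table.

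In the dim cells 2 of 8 genes of this arm fell from WT to AS (6.42% of all genes). Id1 fell by 1.87 (SE 0.26, adjusted p = 0.0179), from 1400, 1873 and 1640 counts to 408, 435 and 661. Gja4 fell by 3.29 (SE 0.66, adjusted p = 0.0261), from 143, 71 and 57 counts to 8, 15 and 8. In the bright cells edgeR called none of 10, and 4 had an unadjusted p below 0.05, against 21.8% of all genes. DESeq2 called 4 there, all lower in AS (Id1, Id2, Id3 and Hey1), and its count over all genes is given in the last section. Id1 and Gja4 moved the same way in the dim cells as the endothelial markers there, whose part was not tested.

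TGF-beta target genes did not move in 1 direction. From dim to bright cells 9 of 17 rose and 3 fell in WT (13.8% and 11.5% of all genes), and 12 rose and 3 fell in AS (28.6% and 26.5%). Tsc22d1 (2.53) and the vasoconstrictor gene Edn1 (3.25) rose in WT, and Timp3 (5.18), an inhibitor of matrix metalloproteinases, rose in AS. This is no difference between genotypes, since DESeq2 called each of these genes in both. In each genotype every bright library held more counts of them than any dim library. Where the leukocyte markers had medians of -7.80 in WT and -7.12 in AS, Fn1, fibronectin, fell by 5.39 in WT and fell by 7.23 in AS, and Tgfbi, which monocytes also express strongly, fell by 3.99 and by 4.49.

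From WT to AS, 1 of 18 tested target genes rose and 2 fell in the dim cells (2.21% and 6.42% of all genes). Junb, an AP-1 subunit, rose there by 1.38 (SE 0.16, adjusted p = 0.0142). Timp3 fell by 2.999 (SE 0.53, adjusted p = 0.0223) and Edn1 fell by 2.39 (SE 0.58, adjusted p = 0.0445). In the same comparison 6 of 9 endothelial markers fell, with a median of -2.18, and 5 of 8 proximal tubule markers, with a median of -4.42, while 3 of 18 leukocyte markers rose and 14 of 18 had a positive difference, and the part of these cell types in the values of Junb, Timp3 and Edn1 was not tested. In the bright cells Col1a2, a chain of type I collagen, was the gene that edgeR called of 18, and it rose by 1.69 (SE 0.29, adjusted p = 0.0412), from 238, 196 and 206 counts in WT to 812, 492 and 737 in AS. Of the 18, 11 had an unadjusted p below 0.05, against 21.8% of all genes. DESeq2 called 4 higher (Col1a2, Junb, Tsc22d1 and Zeb1) and 1 lower (Edn1), and its count over all genes is given in the last section. The edgeR call of Col1a2 held in 8 of 14 alternatives and was lost without WT-bright replicate 3, AS-bright replicate 1 or AS-bright replicate 3, with adjusted p of up to 0.249. In the same libraries the 7 podocyte markers summed to 188 to 303 CPM in WT and 326 to 557 CPM in AS. Of these, 6 of 7 were positive, with a median log2 difference of 0.95, and none was called. Of 7 mesangial and mural markers tested, 3 were positive and 4 negative, with a median of -0.04, and none was called. The part of these cell types in the Col1a2 values was not tested.

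The genes whose log2 CPM ran most alike to each member over the 12 libraries were looked up among 12650 genes, as a description in which the step from dim to bright cells dominates. Eng ran with Plpp3, Adamts1 and Kdr (Pearson r 0.997 to 0.998), and Acvrl1 with Cyp20a1, Mansc1 and Sertad1 (0.991 to 0.994). Tgfbr2 ran with Clic4, Myo1c and Irf2bpl (0.987 to 0.988), Tgfbr3 with Bahcc1, Epha4 and Klhl8 (0.988 to 0.989) and Tgfb2 with Ikbip, Prickle1 and Ly6c1 (0.981 to 0.984). Tgfb1 ran with Mob1a, Myo9b and Coro7 (0.956 to 0.970) and Tgfbr1 with Idi1, Pkd2l2 and Strada (0.951 to 0.980). Inhbb ran with Rps6ka4, Zbtb22 and Chmp3 (0.933 to 0.945), and Tgfb3, the member with the weakest likeness, with Bicdl1, Appbp2 and Casp2 (0.843 to 0.862).

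Between the 9 genes themselves the correlation over the 12 libraries was 0.962 for Eng and Acvrl1, 0.963 for Tgfbr3 and Acvrl1, 0.952 for Tgfbr2 and Acvrl1 and 0.934 for Tgfb2 and Eng. Tgfb1 and Tgfbr1 were alike to each other (0.757) and ran against Eng (-0.760 and -0.673). The 12 libraries fall into 4 groups, and these values describe the differences between groups more than those between mice.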

How the data were processed

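RNA of dim and bright tdT cells of 3 WT and 3 AS mice was sequenced from stranded poly-A libraries. Per the labels and the study's methods, STAR 2.6.0c aligned the reads to GRCm38.p5 and counted them on Gencode M16 genes. The deposited counts are reads per gene, not normalized. The deposited RPKM were computed by the authors per kilobase of a gene length that is also in the tables. The tables further hold the authors' own AS over WT log2 fold changes, logCPM, likelihood ratios, p-values and FDR, which were not used.

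Each comparison was fitted with edgeR 4.0.16 in R 4.3.3 on the counts, with filterByExpr, TMM normalization, the quasi-likelihood test and Benjamini-Hochberg adjustment over all genes tested at a threshold of 0.05. Fits were first tested on simulated data, where the share of false calls ran above the threshold in each comparison and part of the changed genes was missed, so that the adjusted p may be too small. AS over WT used the 6 libraries of a table, and bright over dim the genes in both tables. CPM by library come from 1 TMM normalization of the genes in both tables, marker sums from all counts on genes. P-values measure the spread between 3 mice. The standard error is the log2 fold change over the root of the F statistic. ERCC spike-ins were left out. The chi-square per degree of freedom of replicate pairs was 29.5 to 104, so each library was counted once.

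The dim and bright libraries with the same number come from the same mouse, which is where the pairing comes from. Their deviations from the group means had a mean correlation of 0.197 in WT and 0.213 in AS.

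The 9 genes, the lists, the markers and the tests were chosen with earlier results of these data known. For the 9 genes no p is given where those results had been in view, which covers AS over WT in bright cells, the interaction and Inhbb. The list genes were tested in each comparison. Named are, per list and comparison, up to 4 called genes with the smallest adjusted p, and the 3 genes most alike to each of the 9. A gene given for 1 genotype only can thus also have been called in the other. One gene that the rule names is not reported here. Inhba, Lrrc32, Fst, Gdf2, Bmp10 and genes called by DESeq2 alone were named after their values were seen. Coordinates and exon lengths are those of Gencode M21 on GRCm38. The alternatives tried were DESeq2 1.42.0, the likelihood ratio test of edgeR, RLE factors or plain library sizes in place of TMM, no filter, 1 fit of all 12 libraries, a replicate block, and leaving out each library. The version 3 quasi-likelihood fit of edgeR, merged exon lengths and the settings of the interaction were added after the data had been seen.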

Additional observations from a re-analysis of the deposited data

Results flagged for a closer look

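Eng had opposite differences between AS and WT in the 2 cell fractions. Every AS-dim library lay below every WT-dim library (log2 fold change -2.21), and every AS-bright library lay above every WT-bright library (0.52). The difference between these effects was not tested, since it contains a contrast that was in view when the genes were chosen. Of the 9 endothelial markers, 8 were negative in the dim and positive in the bright comparison, and 2 of them, Kdr (-2.76 and 0.76) and Cdh5 (-1.99 and 0.59), had no overlap of the libraries in either. Emcn was negative in both (-2.88 and -0.39).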

How the results depend on the processing

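The 5 calls of bright over dim in WT and the 6 in AS held in all 14 alternatives, and the counts of all genes, list genes and members called there stayed within 1.5 times. In the dim comparison of AS and WT the call of Eng held in 12 of 14 and that of Tgfb2 in 8 of 14. The cause of the changes below was not tested.

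For AS over WT in dim cells, 1263 genes, 7 list genes and 2 members were called. DESeq2 called 2221 genes and 15 list genes, the likelihood ratio test 11 list genes, 1 fit of all 12 libraries 2106 genes and 11 list genes, and the version 3 fit 582 genes and 4 list genes. Leaving out 1 library gave 0 to 1825 genes, 0 to 14 list genes and 0 to 2 members, with 0 genes without AS-dim replicate 1 (2972 at an unadjusted p below 0.05). Without that library the log2 differences of Tgfb3 and Tgfbr1 turned to -0.11 and -0.0099, and over all left-out libraries they ran up to 0.97 and 0.41.

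For AS over WT in bright cells, 65 genes and 1 list gene were called. DESeq2 called 1117 and 11, the likelihood ratio test 897 and 4, 1 fit of all 12 libraries 139 and 2, no filter 39 and 0 (20 list genes at an unadjusted p below 0.05), library sizes alone 2 list genes, and the version 3 fit 0 and 0 (2906 and 16). Leaving out 1 library gave 0 to 281 genes and 0 to 4 list genes, with 0 genes without WT-bright replicate 3, AS-bright replicate 1 or AS-bright replicate 3 (2714, 1813 and 2336 at an unadjusted p below 0.05). For bright over dim in AS, Tgfb3 ran from -0.47 to 0.62 with 1 library left out, and was positive without AS-dim replicate 1 (0.62) and without AS-bright replicate 2 (0.19).

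With a replicate block the pairing by mouse changed no call of a member for bright over dim. Between AS and WT the numbers are different mice, and the block gave 494 genes, 3 list genes and 1 member in dim cells (Tgfb2 had an adjusted p of 0.0540) and 16 genes and 0 list genes in bright cells (19 list genes at an unadjusted p below 0.05). Few counts stand behind the values of Tgfb3 and, outside AS-bright cells, of Inhbb.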
